A study of Mus musculus with 9 samples.

Results

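The metabolic and xenobiotic nuclear receptors of the liver, which sense lipids, sterols, drugs and thyroid hormone, were followed through regeneration. They were chosen by name, with earlier results of these data known, and make up 10 of the 43346 genes in the count table: the xenobiotic receptors *Nr1i2* (PXR) and *Nr1i3* (CAR), the oxysterol receptors *Nr1h2* (LXRβ) and *Nr1h3* (LXRα), the fatty acid receptors *Ppara*, *Ppard* and *Pparg*, their shared partner *Rxra*, the LRH-1 gene *Nr5a2*, and the thyroid hormone receptor *Thrb*. All 10 passed the filter on low counts. Bulk RNA-Seq of whole liver was compared in 3 groups of 3 samples from male C57/BL6 mice aged 12 weeks. All of the mice underwent 70% partial hepatectomy. Baseline is the tissue resected at 0 h from vehicle-treated mice. The other 2 groups are liver remnants taken 40 h after surgery from mice given vehicle (normal saline) or NSC-87877 (NSC), a small molecule inhibitor of the tyrosine phosphatase SHP2 that also acts on SHP1, injected i.p. at 7.5 mg/kg every 12 h, or 15 mg/kg per day. By the sample labels dosing began 12 h before surgery, whereas the methods place it a day before. No baseline library from NSC-treated mice was analysed here, so the comparison of NSC with baseline holds surgery, time and drug together. Whether the baseline samples came from the same mice as the vehicle remnants is not stated.

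Nuclear receptors are transcription factors switched by small lipophilic ligands. PXR, CAR, the LXRs and the PPARs bind DNA as heterodimers with RXR, as does the thyroid hormone receptor, whereas LRH-1 binds as a monomer. In the hepatocyte PXR and CAR induce cytochrome P450 and conjugating enzymes, the LXRs govern sterol export and lipogenesis, PPARα drives fatty acid oxidation in fasting, LRH-1 sustains bile acid synthesis genes, and thyroid hormone sets the rate of lipid turnover.

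Each library held 23997363 to 42887589 counted reads. All 10 hepatocyte markers were detected in every library and summed to 140300 to 206300 CPM (counts per 1000000 counted reads), whereas pancreatic acinar markers summed to at most 1.43 CPM and adipocyte markers to at most 3.50 CPM, with *Plin1* and *Lep* under the limit that a count of 0 allows (3 counts, or 0.07 to 0.125 CPM). The 8 proliferation markers rose in both comparisons with baseline, from sums of 31.9 to 33.5 CPM to 361.5 to 429.2 CPM with vehicle and 283.5 to 919.4 CPM with NSC. The lowest of these NSC sums was in NSC replicate 1, which also lay next to the vehicle libraries, just beyond the lowest of them, on the second principal component (-31.01, against -28.13 to -13.44 for vehicle and 32.49 and 54.02 for the other NSC livers). Adipocyte marker sums were 1.11 to 3.50 CPM at baseline, 0.295 to 0.826 CPM with vehicle and 0.039 to 0.57 CPM with NSC. *Cfd*, the only tested marker of that list, was called lower in both comparisons with baseline (log2 fold changes of -2.66 and -3.77). Its vehicle call was lost without 1 library (adjusted p up to 0.0553). The part of this fall in the *Pparg* values was not tested. In whole tissue, fewer cells of a type and less RNA per cell cannot be told apart.

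The promoters of 4 of the 5 receptors called lower after hepatectomy with vehicle are shown here as examples. Each window runs from 250 bases before to 50 bases after a RefSeq start (GRCm38.p6). They are *Nr1i2* (chr16:38294775-38295074, minus strand), *Nr1i3* (chr1:171213720-171214019, plus strand), the middle of 3 annotated starts of *Pparg* (chr6:115362099-115362398, plus strand) and the upstream of 2 starts of *Thrb* (chr14:17660710-17661009, plus strand). Capitals mark matches on either strand to any of 5 motifs. The nuclear receptor hexamer was searched as AGGTCA. The HNF4-type element was searched as CAAAGTCCA. The GC box was searched as GGGCGG. The TATA box was searched as TATAAA, and the E-box as CACGTG.
Nr1i2: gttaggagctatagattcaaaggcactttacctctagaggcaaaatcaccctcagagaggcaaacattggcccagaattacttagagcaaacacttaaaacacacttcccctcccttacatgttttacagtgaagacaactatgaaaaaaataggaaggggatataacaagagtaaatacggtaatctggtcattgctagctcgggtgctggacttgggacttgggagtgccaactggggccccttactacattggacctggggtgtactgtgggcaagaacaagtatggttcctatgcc
Nr1i3: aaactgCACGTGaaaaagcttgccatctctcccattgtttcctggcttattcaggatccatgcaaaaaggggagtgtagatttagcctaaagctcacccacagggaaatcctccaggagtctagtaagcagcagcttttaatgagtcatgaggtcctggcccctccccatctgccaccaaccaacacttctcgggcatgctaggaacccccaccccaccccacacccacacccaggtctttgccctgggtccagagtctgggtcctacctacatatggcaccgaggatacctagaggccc
Pparg: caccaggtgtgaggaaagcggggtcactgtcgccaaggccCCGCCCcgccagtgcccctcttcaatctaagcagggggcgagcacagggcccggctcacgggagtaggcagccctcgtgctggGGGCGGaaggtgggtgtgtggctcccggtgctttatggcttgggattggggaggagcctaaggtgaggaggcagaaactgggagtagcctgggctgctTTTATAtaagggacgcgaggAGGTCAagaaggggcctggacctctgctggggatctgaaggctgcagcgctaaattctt
Thrb: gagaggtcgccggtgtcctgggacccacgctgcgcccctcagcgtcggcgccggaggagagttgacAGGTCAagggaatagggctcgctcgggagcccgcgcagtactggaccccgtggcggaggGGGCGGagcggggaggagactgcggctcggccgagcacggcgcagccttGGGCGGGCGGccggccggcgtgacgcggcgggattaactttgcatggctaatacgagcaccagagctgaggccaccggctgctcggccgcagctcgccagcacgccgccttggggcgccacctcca
The *Nr1i2* window held none of these words and the *Nr1i3* window held 1 E-box. The *Pparg* window held AGGTCA, 2 GC boxes and a TATA box, and the *Thrb* window held AGGTCA and 3 GC boxes, of which 2 overlap each other. No base of these windows belonged to 2 differently named motifs. Of the windows not printed, that of *Ppara*, the other receptor called lower, held 2 GC boxes. The first *Pparg* start held AGGTCA and 1 GC box, and the last held no match. The other *Thrb* start held a TATA box and an E-box. Over all 16 windows of the 10 genes, AGGTCA was present for 4 genes (*Pparg*, *Rxra*, *Nr5a2* and *Thrb*), the GC box for 5, the TATA box for 3, the E-box for 2 and CAAAGTCCA for 0. A gene with several starts has more windows to hold a match. Counted by single window, AGGTCA was in 5 of 16, the GC box in 6, the TATA box in 3, the E-box in 2 and CAAAGTCCA in 0. Among all 32851 promoters of this length, 16.3% held AGGTCA, 35.7% a GC box, 13.6% a TATA box, 7.15% an E-box and 0.475% CAAAGTCCA. The windows ranged widely in GC content, from 40.3% at the last *Pparg* start to 83.0% at the upstream *Rxra* start, around a median of 52.7% for all promoters.

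To ask which receptors the liver expressed most, levels were compared per gene length (FPKM). At baseline *Rxra* was the most abundant, at 80.1 ± 8.63 FPKM (SD, n = 3), followed by *Nr1i3* at 67.4 ± 9.77 FPKM and *Nr1i2* at 55.0 ± 6.15 FPKM. The *Rxra* and *Nr1i3* ranges overlapped, and *Nr1i2* lay below both. *Nr1h3* came next at 40.1 ± 5.29 FPKM and *Ppara* at 20.3 ± 8.44 FPKM, each apart from its neighbors. *Nr5a2*, *Nr1h2* and *Pparg* lay between 6.52 and 11.9 FPKM with overlapping neighbors, and *Thrb* (4.92 ± 0.557 FPKM) and *Ppard* (3.33 ± 1.71 FPKM) were lowest and overlapped. At 40 h the order changed near the top. *Nr1h3* held second place at 39.4 ± 2.62 FPKM with vehicle and 39.2 ± 7.19 FPKM with NSC, while *Nr1i3* stood at 34.6 ± 7.23 and 32.3 ± 17.3 FPKM and *Nr1i2* at 30.6 ± 8.34 and 31.3 ± 4.20 FPKM in the same groups. These 3 genes overlapped in neighboring pairs at 40 h, whereas at baseline every pair of neighbors among them was apart. *Rxra* stayed first in both groups, and with NSC *Ppard* stood alone at the bottom, at 1.87 ± 0.519 FPKM. The *Nr1i3* level carries a limit of annotation, since 3304 of its exonic bases are also exon of *Tomm40l* on the opposite strand and the strand setting of the counting is not given in the sources used here. *Tomm40l* itself lay between 6.66 and 17.8 CPM.

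**Figure D1:**
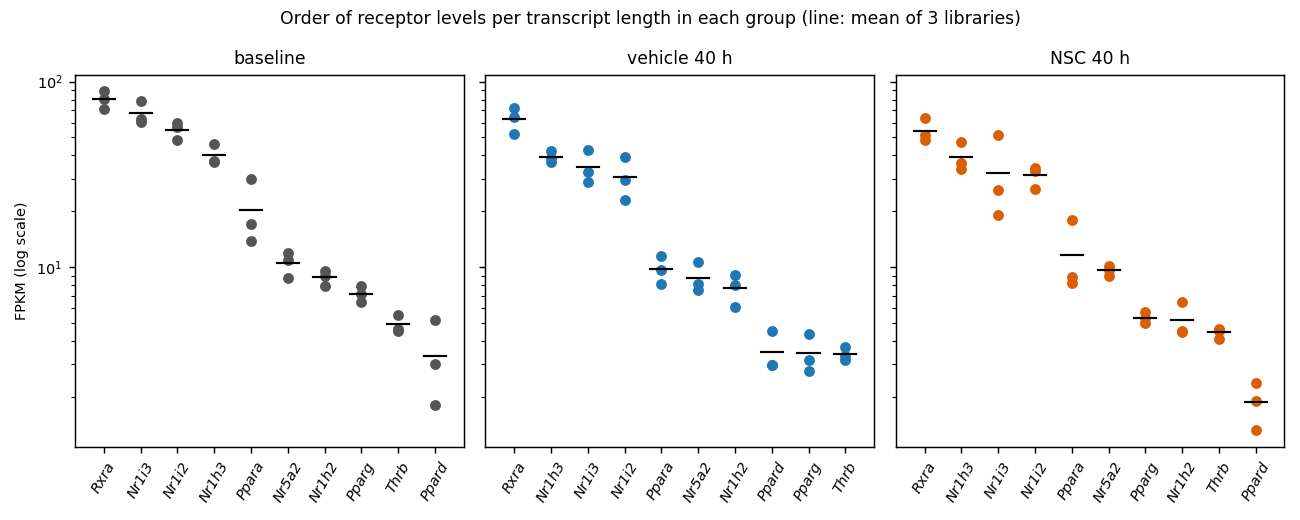
FPKM of the 10 receptors (log scale) in the 3 libraries of each group, ordered within each panel by the group mean (line). *Rxra* leads every panel, *Nr1h3* stands below *Nr1i3* and *Nr1i2* at baseline and above them at 40 h, and *Ppard* sits alone at the bottom with NSC at 1.33 to 2.37 FPKM.

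Whether regeneration itself altered the receptors was addressed by comparing vehicle at 40 h with baseline. The receptors that fell were *Pparg*, *Ppara*, *Nr1i3*, *Nr1i2* and *Thrb*, and none rose. That is 5 of 10 called (edgeR quasi-likelihood test, Benjamini-Hochberg adjusted p under 0.05), where 23.7% of all 15024 genes tested were called and 11% were called lower. The median log2 fold change was -0.45 over the 10 receptors and 0.01 over all genes. In 6 of 10 receptors the vehicle livers lay wholly below baseline, as they did for 22% of all genes. No member passed the stricter call that adds an absolute log2 fold change over 1.5, which 7.22% of genes passed, and none passed it with NSC against baseline, where 8.13% of genes did.

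Both xenobiotic receptors fell. *Nr1i2* was at 159.8, 150.4 and 126.5 CPM at baseline and at 95.5, 83.5 and 60.3 CPM with vehicle at 40 h. Every remnant lay below every baseline liver, and the log2 fold change was -0.87 (SE 0.187, adjusted p = 0.00614). *Nr1i3*, the constitutive androstane receptor, was at 288.1, 359.7 and 276.5 CPM at baseline and at 178.8, 158.9 and 131.3 CPM with vehicle. The groups did not overlap, and the log2 fold change was -0.98 (SE 0.293, adjusted p = 0.0329). Leaving out any 1 of the 6 libraries compared took the *Nr1i3* call away (log2 fold change -1.08 to -0.85, adjusted p up to 0.12), as did scaling by library size only (adjusted p = 0.0551) and a filter of at least 1 count (adjusted p = 0.068), whereas the *Nr1i2* call held without each library in turn (-1.01 to -0.70).

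The oxysterol receptors did not pass the test. *Nr1h2* was at 31.6, 27.7 and 33.1 CPM at baseline and at 28.8, 30.1 and 21.1 CPM with vehicle, with overlapping ranges (log2 fold change -0.21, 95% interval -0.61 to 0.20, adjusted p = 0.457). *Nr1h3* was at 97.7, 96.0 and 119.6 CPM at baseline and at 100.8, 103.7 and 101.1 CPM with vehicle. The remnants lay inside the baseline range, with a log2 fold change of -0.04 and an interval of -0.38 to 0.31 (adjusted p = 0.892).

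Of the fatty acid receptors, *Pparg* and *Ppara* fell and *Ppard* did not pass the test. *Pparg*, known as the adipocyte receptor and present at low level in liver, was at 14.75, 13.4 and 16.2 CPM at baseline and at 8.23, 6.09 and 6.50 CPM with vehicle. No remnant reached the baseline range, and at -1.09 (SE 0.175, adjusted p = 0.00121) this was the member with the smallest adjusted p. *Ppara*, the receptor of the fasting response, was at 55.4, 118.7 and 67.7 CPM at baseline and at 41.7, 41.0 and 32.3 CPM with vehicle (log2 fold change -1.07, SE 0.34, adjusted p = 0.0481). Its groups did not overlap, but baseline replicate 2 was far above the other baseline livers and the call lay at the threshold. Without baseline replicate 2 the change was -0.68 (adjusted p = 0.123), and the call was also lost without baseline replicate 3 (-1.18, adjusted p = 0.0728), without vehicle replicate 1, 2 or 3 (-1.13, -1.12 and -0.96, adjusted p of 0.105, 0.0974 and 0.147) and without NSC replicate 2 (-1.07, adjusted p = 0.0532), with the replicate number as a block (adjusted p = 0.0608), with scaling by library size only (adjusted p = 0.0652) and with a filter of at least 1 count (adjusted p = 0.143). Baseline replicate 2 also held the most *Lpin1* (1047 CPM against 185.9 and 101.5 CPM) and *Thrsp* (1783 CPM against 224.4 and 199.3 CPM), both lipid genes, and the part of this in the *Ppara* result was not tested beyond the fit without that liver. *Ppard*, the widely expressed member, was at 14.5, 8.64 and 24.7 CPM at baseline and at 13.0, 23.3 and 14.1 CPM with vehicle, and the ranges overlapped (log2 fold change 0.08, interval -0.79 to 0.95).

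*Rxra*, the obligate partner, was at 405.2, 500.9 and 452.6 CPM at baseline and at 374.7, 389.1 and 294.8 CPM with vehicle. Every remnant was lower than every baseline liver, but the change of -0.36 (SE 0.17) did not pass the test (adjusted p = 0.145). *Nr5a2* was at 73.0, 53.2 and 66.4 CPM and at 59.3, 49.6 and 49.4 CPM, with overlap (log2 fold change -0.28, adjusted p = 0.198). With correction for GC content it fell by 0.48 on the log2 scale and was called (adjusted p = 0.028). That correction moved the median of all genes to -0.09. *Thrb* was at 37.9, 30.9 and 31.3 CPM at baseline and at 23.0, 24.1 and 21.4 CPM with vehicle. These did not overlap, and the log2 fold change was -0.55 (SE 0.137, adjusted p = 0.0134). The *Thrb* call was lost without baseline replicate 1 (-0.45, adjusted p = 0.0702) and without vehicle replicate 1 (-0.55, adjusted p = 0.0508).

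**Figure D2:**
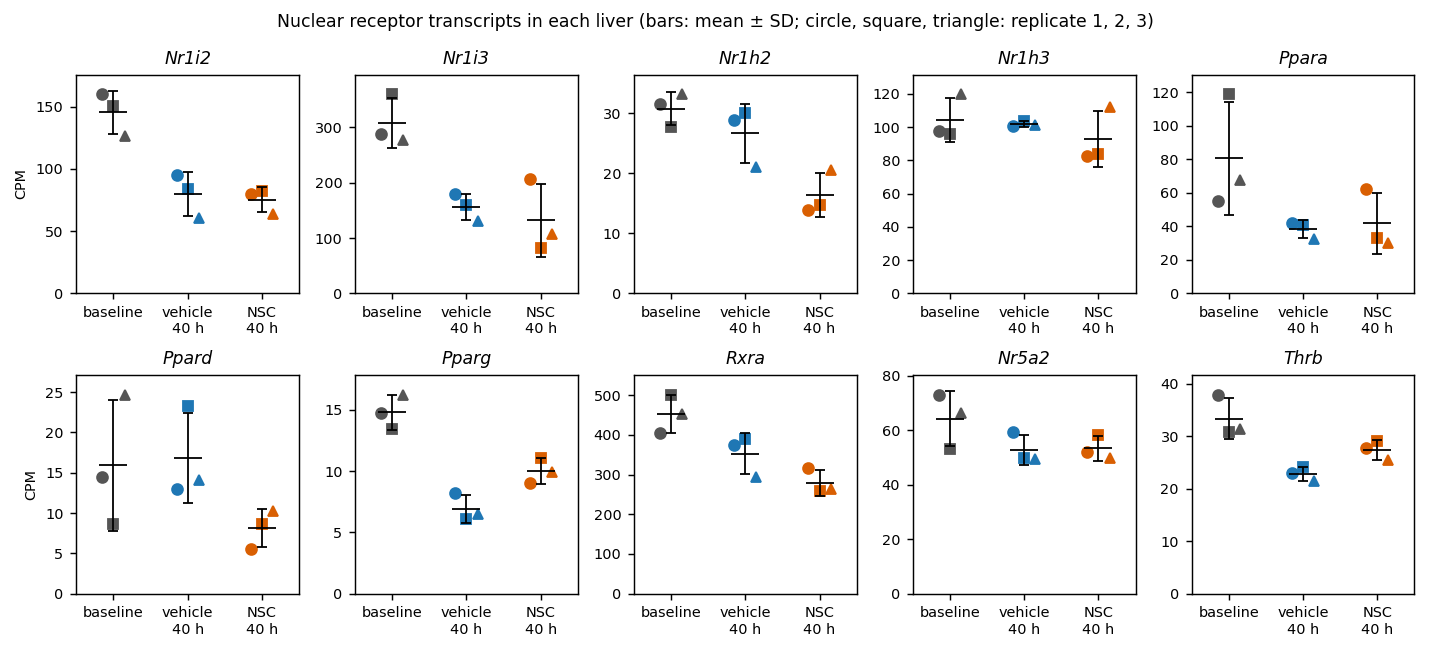
CPM of each receptor in each of the 9 livers (linear axes from 0), with the group mean and SD as black bars and the replicate number as the symbol. *Nr1i2*, *Nr1i3*, *Pparg*, *Rxra* and *Thrb* in both 40 h groups lie below all baseline livers. *Nr1h2* and *Ppard* with NSC lie below all vehicle livers, and *Ppara* shows 1 baseline liver at 118.7 CPM.

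In NSC-treated remnants 5 of 10 receptors also fell against baseline, where 34.7% of all genes were called and 16.5% were called lower. They were *Nr1i3*, *Nr1i2*, *Nr1h2*, *Rxra* and *Pparg*. All 10 estimates were negative, with a median of -0.80 (0.01 over all genes), and in 6 receptors the groups did not overlap, as in 23.1% of all genes in this direction. The vehicle and NSC comparisons share the same 3 baseline livers.

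*Nr1i2* in the NSC livers was at 79.5, 82.2 and 63.5 CPM, all below baseline (log2 fold change -0.96, SE 0.187, adjusted p = 0.00252). *Nr1i3* was at 207.1, 82.3 and 107.6 CPM, also all below baseline (-1.22, SE 0.295, adjusted p = 0.00871), with NSC replicate 1 well above the other NSC livers. *Nr1h2* was at 13.9, 14.7 and 20.6 CPM, under every baseline and every vehicle liver (-0.91 against baseline, SE 0.189, adjusted p = 0.00342). With correction for GC content this change shrank to -0.44 (adjusted p = 0.0354). *Rxra* was at 315.9, 258.0 and 262.8 CPM, below all baseline livers (-0.70, SE 0.171, adjusted p = 0.008). With the same correction the *Rxra* change was -0.37 and was not called (adjusted p = 0.0836). *Pparg* was at 8.999, 11.1 and 9.94 CPM, again below baseline (-0.56, SE 0.173, adjusted p = 0.0249). Its call was lost without baseline replicate 1 (-0.57, adjusted p = 0.0618), baseline replicate 3 (-0.49, adjusted p = 0.109) or NSC replicate 1 (-0.49, adjusted p = 0.0584), and with scaling by library size only (-0.43, adjusted p = 0.106).

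The other 5 receptors did not pass the edgeR quasi-likelihood test against baseline. Of these, DESeq2 and the likelihood ratio test called *Ppara* (adjusted p of 0.0151 and 0.022) and *Ppard* (adjusted p of 0.0297 and 0.047), and the exact test called *Ppara* (adjusted p = 0.0371). *Nr1h3* with NSC was at 82.7, 83.5 and 112.0 CPM, overlapping baseline (log2 fold change -0.17, interval -0.52 to 0.17), and the estimate turned to 0.13 with correction for GC content. *Ppara* was at 62.5, 33.0 and 29.8 CPM (-0.95, adjusted p = 0.056), with NSC replicate 1 inside the baseline range. Without that liver *Ppara* was called lower (-1.36, adjusted p = 0.00656), as it was without baseline replicate 1 (-1.16, adjusted p = 0.0309), whereas without baseline replicate 2 the change shrank to -0.56 (adjusted p = 0.169). *Ppard* was at 5.58, 8.63 and 10.3 CPM (-0.97, adjusted p = 0.0865) and was called without baseline replicate 2 (-1.26, adjusted p = 0.0183), whereas without baseline replicate 3 it shrank to -0.50 (adjusted p = 0.304). *Nr5a2* was at 51.9, 58.3 and 49.7 CPM, and *Thrb* at 27.8, 29.1 and 25.4 CPM. The *Thrb* livers lay below all baseline livers without passing the test (-0.28, adjusted p = 0.128). Correction for GC content moved the median of all genes from 0.01 to -0.07. With it both *Nr5a2* (-0.70, adjusted p = 0.00469) and *Thrb* (-0.67, adjusted p = 0.00261) were called lower. These are the members with the lowest transcript GC content, at 43.3% and 44.1%, whereas *Nr1h2* and *Rxra* have the highest, at 60.6% and 57.0%.

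**Figure D3:**
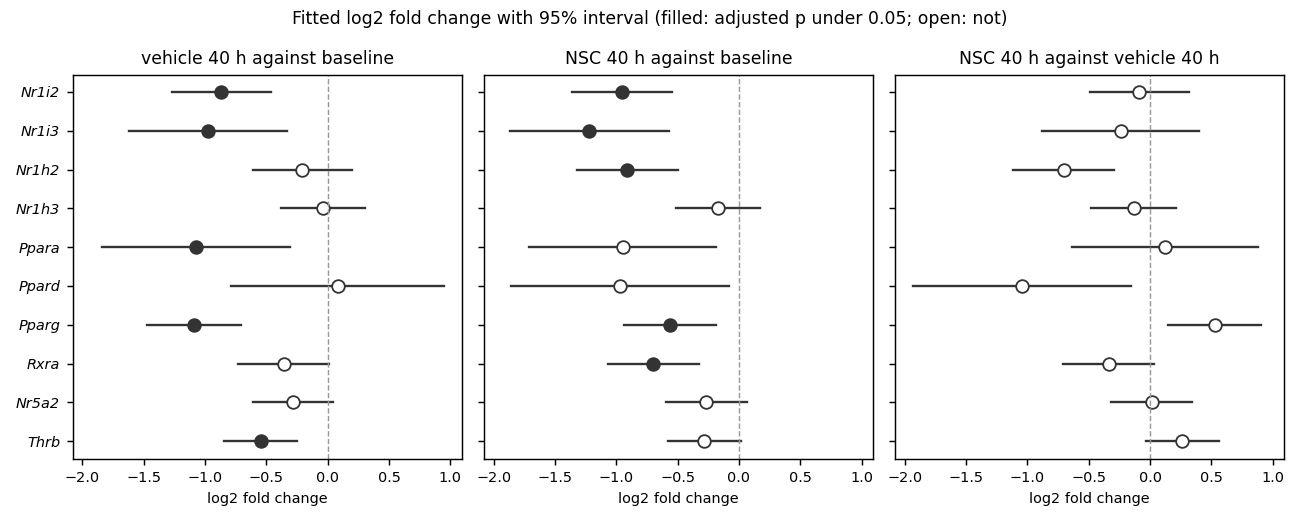
Fitted log2 fold change (x axis) of the 10 receptors with the 95% interval in the 3 comparisons, where filled points passed an adjusted p of 0.05. In each comparison with baseline 5 filled points lie below 0, and no point is filled in the direct comparison, where the intervals of *Nr1h2*, *Ppard* and *Pparg* leave out 0.

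The effect of the drug was addressed by comparing NSC with vehicle at 40 h. No receptor was called, in a comparison where 6 genes in all (0.0399%) passed the edgeR quasi-likelihood test. At an unadjusted p under 0.05 there were 3 receptors, against 19.5% of all genes. DESeq2 called 1 receptor (*Nr1h2*) among 725 genes, the edgeR exact test 1 (*Ppard*) among 256 genes and the likelihood ratio test 0 among 412 genes. In 2 receptors every NSC liver lay below every vehicle liver (12.2% of all genes), and in 2 every NSC liver lay above (10.3%).

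The receptors lower in all NSC livers were *Nr1h2* and *Ppard*. For *Nr1h2* the log2 fold change was -0.71 (SE 0.188, interval -1.12 to -0.30, unadjusted p = 0.00276, adjusted p = 0.101 in edgeR and 0.0306 in DESeq2). For *Ppard* it was -1.05 (SE 0.395, interval -1.94 to -0.16, adjusted p = 0.199). The receptors higher in all NSC livers were *Pparg* and *Thrb*. *Pparg* differed by 0.53 (SE 0.175, interval 0.15 to 0.91, adjusted p = 0.148) and *Thrb* by 0.26 (SE 0.137, interval -0.04 to 0.56, adjusted p = 0.305). *Rxra* stood at -0.34 (interval -0.71 to 0.03), *Nr1i3* at -0.24 (-0.88 to 0.40), *Nr1h3* at -0.14 (-0.48 to 0.21), *Nr1i2* at -0.09 (-0.49 to 0.32), *Ppara* at 0.12 (-0.64 to 0.88) and *Nr5a2* at 0.01 (-0.32 to 0.34), all with overlapping groups. With correction for GC content *Nr1h2* shrank to -0.30 (adjusted p = 0.491), *Rxra* to -0.009 (adjusted p = 0.987) and *Thrb* to 0.06 (adjusted p = 0.866), and the sign turned for *Nr1i2* (0.10), *Nr1h3* (0.16) and *Nr5a2* (-0.22). *Nr1i3* depended on NSC replicate 1, without which it was called lower with NSC (-0.72, adjusted p = 0.0472). Markers of other cell types also differed between livers. Stellate cell markers summed to 229 to 260 CPM at baseline (10 of 10 above the limit of a count of 0), to 435 to 564 CPM with vehicle and to 282 to 523 CPM with NSC, and the 12 macrophage markers summed to 250 to 351, 244 to 443 and 419 to 709 CPM. NSC replicate 1 held the highest of the NSC sums for both lists. Much of the stellate rise with vehicle was *Col3a1* (mean of 20.6 CPM at baseline and 160.5 CPM with vehicle) and *Col1a1* (3.76 and 45.3 CPM). *Lrat* and *Reln* were not called in either comparison with baseline. Of the macrophage markers *Marco* was called higher in both. *Clec4f*, *Csf1r* and *Adgre1* had negative estimates with vehicle and positive ones with NSC, none of them called. The 7 cholangiocyte markers summed to 38.1 to 41.1 CPM at baseline, 76.0 to 115.1 CPM with vehicle and 79.2 to 121.6 CPM with NSC, so that both 40 h groups lay above baseline and overlapped each other. Most of this sum was *Spp1* (means of 33.2, 73.2 and 84.3 CPM). Against baseline *Spp1*, *Krt19*, *Krt7* and *Sox9* had positive estimates, and *Epcam* and *Cldn7* negative ones that were not called. *Krt19* and *Krt7* stood lower with NSC than with vehicle (log2 fold changes of -1.075 and -1.021, not called). The part of these differences in the *Pparg*, *Ppard* and *Nr1h2* values was not tested.

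Related receptors were also set against each other within a library, which removes the scaling between libraries but not differences tied to GC content. The shares were not recomputed with correction for GC content. That correction shrank the fitted NSC against vehicle changes of *Nr1h2* to -0.30 and of *Thrb* to 0.06. *Nr1h3* made up 80.6%, 82.3% and 82.9% of summed LXR FPKM at baseline, 82.4%, 82.2% and 86.5% with vehicle and 88.9%, 88.4% and 87.9% with NSC. All 3 NSC livers were above the other 6, by 4.69 points on average over vehicle. *Thrb* made up 61.3%, 65.9% and 50.6% of *Thra* plus *Thrb* at baseline, 64.2%, 65.3% and 68.9% with vehicle, and 73.2%, 75.8% and 71.4% with NSC. Here too the NSC livers were highest, by 7.33 points over vehicle. *Thra* shares 263 exonic bases with *Nr1d1* on the opposite strand, a gene that also fell, so this share is uncertain. *Ppard* made up 15.8%, 26.8% and 20.7% of the 3 *Ppar* genes with vehicle and 5.47%, 11.6% and 14.8% with NSC, which did not overlap, and between 4.72% and 17.1% at baseline. Each of these separations had an exact two-sided permutation p of 0.1, the smallest that 3 against 3 livers can give, and an adjusted p of 0.42 over 21 comparisons. *Nr1i2* as a share of *Nr1i2* plus *Nr1i3* lay between 39.9% and 63.3% in all livers with overlapping groups, and *Rxra* between 86.1% and 90.9% of the 3 RXR genes.

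**Figure D4:**
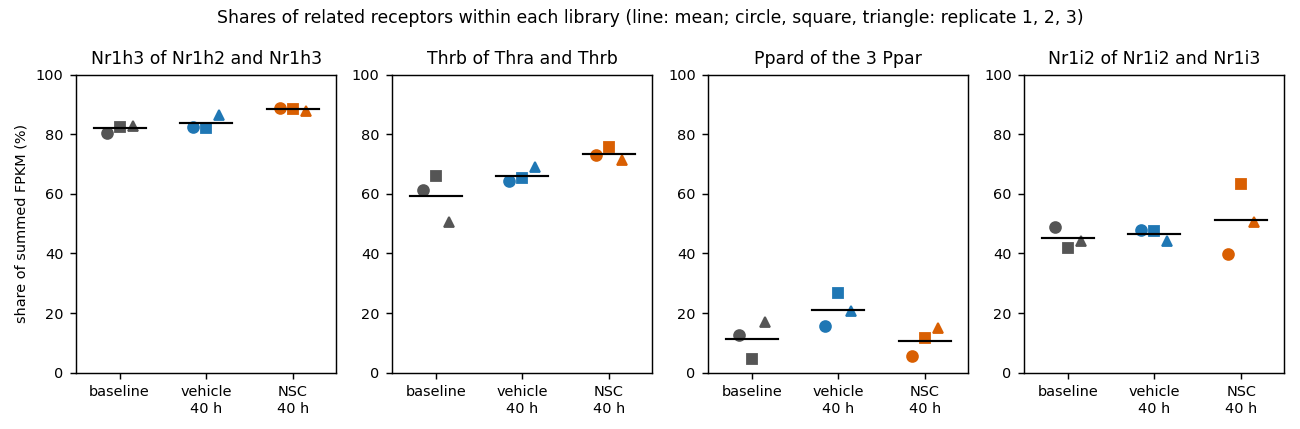
Share of summed FPKM (percent, axis from 0 to 100, without correction for GC content) held by 1 receptor among its relatives, per liver, with the group mean as a line. The 3 NSC livers stand above all others for *Nr1h3* (87.9% to 88.9%) and *Thrb* (71.4% to 75.8%) and below the vehicle livers for *Ppard*.

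Beyond the 10 genes, 39 other nuclear receptors were listed, of which 29 were tested. With vehicle 1 rose and 12 fell, and with NSC 1 rose and 10 fell, with medians of -0.49 and -0.68. That is 44.8% called with vehicle, where 23.7% of all genes were, and 37.9% with NSC, near the 34.7% of all genes. *Nr1h4*, the bile acid receptor FXR, fell from 165.3 ± 6.05 CPM (SD, n = 3) to 79.1 ± 9.96 CPM with vehicle (log2 fold change -1.07, adjusted p = 0.000522) and to 102.1 ± 9.95 CPM with NSC (-0.70, adjusted p = 0.00362). Its target *Nr0b2* (SHP), a repressor of bile acid synthesis, varied too much to be called, at 44.3 ± 16.6, 28.3 ± 18.1 and 21.2 ± 12.1 CPM. Among the RXR genes, *Rxrg* fell in both (-1.85 and -1.49, adjusted p of 0.00474 and 0.00931) and *Rxrb* fell with NSC (-0.76, adjusted p = 0.00414), a call that was lost with correction for GC content (-0.24, adjusted p = 0.132). *Thra* fell with log2 fold changes of -0.99 with vehicle and -1.25 with NSC (adjusted p of 0.0079 and 0.00167). *Esr1*, the estrogen receptor, rose by 0.72 and 0.65 (adjusted p of 0.0129 and 0.0146), but without baseline replicate 1 neither rise was called (adjusted p up to 0.0644), and correction for GC content took the NSC call away (0.32, adjusted p = 0.175). *Nr1d1* (REV-ERBα), a core gene of the circadian clock, stood at 62.1, 62.3 and 30.9 CPM at baseline, at 8.33, 16.7 and 3.21 CPM with vehicle and at 4.86, 14.2 and 7.08 CPM with NSC. It was called lower in both (-2.45 and -2.57), though leaving out 1 library raised its adjusted p to as much as 0.114. Time of day and time since surgery cannot be told apart between 0 h and 40 h livers, for the receptors as for this gene.

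Of 20 coregulators, 1 rose and 5 fell with vehicle, and 2 rose and 9 fell with NSC (30.0% and 55.0% called, against 23.7% and 34.7% of all genes). *Ppargc1b*, a coactivator of the PPARs and LXRs, fell from 3.57 ± 2.13 CPM to 0.698 ± 0.324 and 0.644 ± 0.143 CPM (-2.34 and -2.47, adjusted p of 0.00404 and 0.00226). *Lpin1*, a phosphatidate phosphatase that also acts as a coactivator of PPARα, was at 28.6 to 68.2 CPM with vehicle and 11.1 to 32.2 CPM with NSC, both below the lowest baseline liver. Its changes of -3.40 and -4.54 became -1.77 (adjusted p = 0.0934) and -2.91 (adjusted p = 0.0164) without baseline replicate 2, and without 1 library its adjusted p reached 0.154 and 0.0562. Its vehicle call was also lost with the replicate block (-2.95, adjusted p = 0.0694) and with library size only (adjusted p = 0.0561). *Sirt1*, a deacetylase, rose with NSC (0.97, adjusted p = 0.00637) and was 0.69 higher with vehicle (adjusted p = 0.0442, up to 0.157 without 1 library). Correction for GC content took both *Sirt1* calls away.

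Textbook target genes were counted next, using the same fit, so that their counts stand beside 23.7% of genes called with vehicle and 34.7% with NSC. The lists share genes, so their counts are not independent. *Abcg5* and *Abcg8*, called lower in both comparisons, and *Cyp7a1* are in the LXR and the LRH-1 list. *Cyp7a1* is also in the thyroid hormone list, and *Lpl* is in the LXR and the PPARγ list. Of 29 CAR and PXR targets tested, 2 rose and 8 fell with vehicle (34.5% called), and 2 rose and 7 fell with NSC (31.0%). *Cyp2b10*, the classic CAR target, was at 100.5, 87.3 and 67.6 CPM at baseline and at 1.83, 14.6 and 7.31 CPM with vehicle (-3.43, adjusted p = 0.0146). With NSC it was at 10.9, 30.3 and 28.0 CPM, which missed the threshold (-1.89, adjusted p = 0.0695). *Cyp2a5*, a coumarin hydroxylase, fell with vehicle (-2.85, adjusted p = 0.00756) and with NSC (-1.84, adjusted p = 0.0276, up to 0.103 without 1 library, 0.0812 with the replicate block and 0.0533 with library size only). *Akr1b7*, an aldo-keto reductase, rose by 3.59 and 2.52 (adjusted p of 0.00237 and 0.00847) from a baseline of 0.537 ± 0.0426 CPM. Members of the *Cyp2a*, *Cyp2b* and *Cyp4a* families share sequence, so reads could be split between copies and their values are uncertain.

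The LXR list had a larger share called, with 1 of 17 higher and 9 lower with vehicle (58.8%) and 2 higher and 9 lower with NSC (64.7%), and medians of -1.12 and -1.20. *Scd1*, the stearoyl-CoA desaturase, fell from 9352 ± 3442 CPM to 915 ± 628 CPM with vehicle and 714 ± 321 CPM with NSC (-3.35 and -3.71, adjusted p of 0.00256 and 0.00113). *Pltp*, the phospholipid transfer protein, fell (-2.88 and -2.98, adjusted p of 0.00194 and 0.00111). *Abcg1*, a cholesterol exporter, rose with NSC (1.32, adjusted p = 0.0016) and stood 0.89 higher with vehicle (adjusted p = 0.0182, up to 0.0662 without 1 library).

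Of 36 PPARα targets 1 rose and 10 fell in each comparison (30.6%). *Acaa1b*, a peroxisomal thiolase, fell from 864.0, 783.8 and 968.5 CPM to 136.0, 136.2 and 85.2 CPM with vehicle (-2.87, adjusted p = 4.12e-05) and to 146.4, 134.6 and 229.3 CPM with NSC (-2.36, adjusted p = 7.59e-05). *Cyp4a12a*, a fatty acid hydroxylase, fell (-1.86 and -1.32, adjusted p of 0.000429 and 0.00181). The called riser was *Cyp4a31* in both (2.71 and 2.68, adjusted p up to 0.108 and 0.0896 without 1 library). Of 9 PPARγ targets tested, 1 rose and 3 fell with vehicle and 2 rose and 2 fell with NSC (44.4% each). *Plin4*, a lipid droplet coat protein, fell (log2 fold changes of -2.86 and -3.28, adjusted p of 0.00767 and 0.00322), while *Fabp4*, a fatty acid binding protein also made by macrophages and endothelium, rose by 1.41 and 1.65 (adjusted p of 0.0251 and 0.00893). The vehicle call of *Fabp4* was lost without 1 library (adjusted p up to 0.0883).

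Of 10 LRH-1 targets, 1 rose and 5 fell with vehicle (60%), and 0 rose and 5 fell with NSC (50.0%), with medians of -1.24 and -1.18. *Cyp8b1*, the sterol hydroxylase that makes cholic acid, fell from 664.6 ± 244.3 CPM to 127 ± 38.2 and 103 ± 52.3 CPM (-2.39 and -2.68, adjusted p of 0.00453 and 0.00185). Of 14 thyroid hormone targets, 1 rose and 4 fell with vehicle (35.7%), and 1 rose and 5 fell with NSC (42.9%). *Me1*, malic enzyme, fell (log2 fold changes of -2.33 and -1.88, adjusted p of 9.04e-05 and 0.000189) and *G6pc*, the glucose-6-phosphatase, likewise (-2.03 and -2.599, adjusted p of 0.000909 and 0.000173), whereas *Bcl3*, a cofactor of NF-κB, rose by 1.89 and 1.08 (adjusted p of 0.000813 and 0.00923). *Thrsp* had log2 fold changes of -4.46 and -4.63, and of -2.66 and -2.84 without baseline replicate 2 (adjusted p of 0.0286 and 0.0169), with adjusted p up to 0.0933 and 0.0718 without another single library. In NSC against vehicle 0 genes of these 8 lists were called. Among the other nuclear receptors, *Nr4a1* had a mean of 57.2 CPM with vehicle and 2.64 CPM with NSC. Its log2 fold change was -4.45 (edgeR quasi-likelihood test, unadjusted p = 0.00868, adjusted p = 0.138), which missed the threshold. The study reports this gene among the most lowered in the same comparison, and lower by quantitative PCR too. Why its call differs here was not tested.

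**Figure D5:**
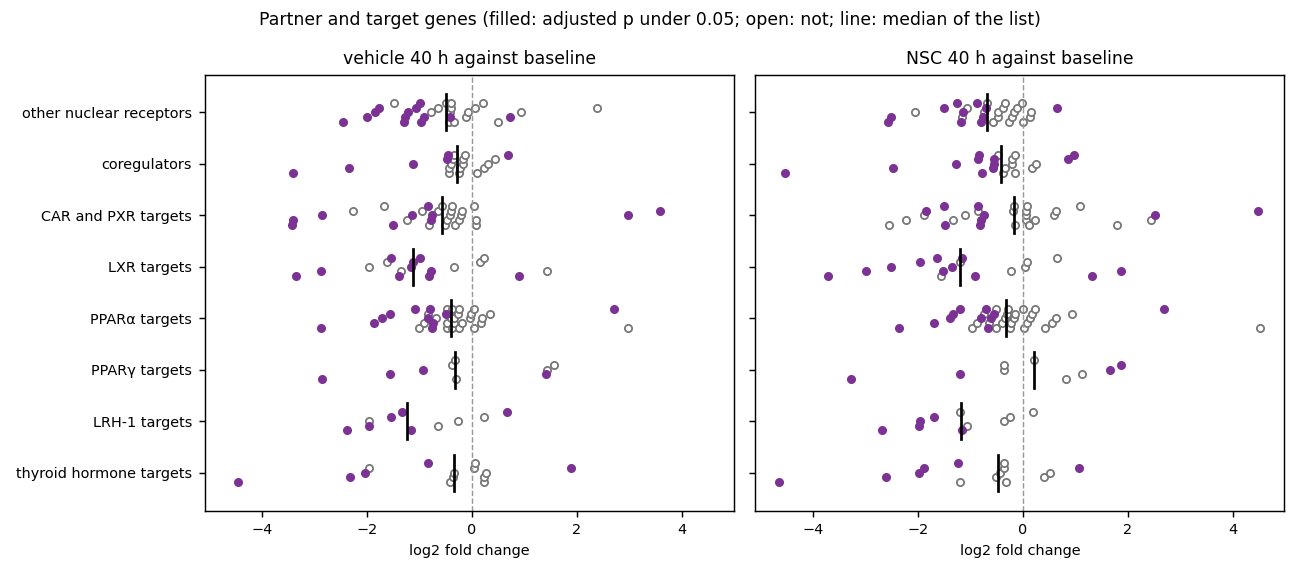
Log2 fold change (x axis) of each tested gene of the 8 lists in the 2 comparisons with baseline, where filled points passed an adjusted p of 0.05 and the line is the median of the list. The medians of the LXR list (-1.12 and -1.20) and of the LRH-1 list (-1.24 and -1.18), which share genes, lie farthest below 0. The PPARγ list is the only one with a median above 0, at 0.22 with NSC.

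To give each called receptor its nearest transcript profiles, genes were ranked by the root mean square difference of log2 CPM centered on the mean of the 9 libraries. *Thrb* was followed most closely by *Nt5c2* (0.05) and *Rxra* by *Araf* (0.08), against root mean squares of 0.24 and 0.32 for the receptors themselves. *Nr1h2* was nearest to *Adrm1* (0.11 of 0.45), *Pparg* to *Ccdc17* (0.11 of 0.47) and *Nr1i2* to *Kif5a* (0.12 of 0.48). *Ppara* (nearest *Cuedc1*, 0.18 of 0.61) and *Nr1i3* (nearest *Tbc1d16*, 0.18 of 0.66) had the most distant neighbors.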

How the data were processed

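Bulk RNA-Seq libraries (TruSeq Stranded mRNA) were made from whole liver in 3 groups of 3 samples. Per the labels and the methods, reads were aligned with STAR 2.6.1 within MAP-RSeq and assigned to genes with featureCounts of Subread 1.5.1. The authors deposited raw counts for each gene, without normalization, and FPKM values, which are those counts divided by gene length plus 1 base and by the library total (largest relative difference on recomputing, 4.96e-10). The submitters' processing notes name a human build, whereas identifiers and coordinates in the table are those of mouse. All 37 mitochondrial genes are listed at 0.

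Counts were fitted in R 4.3.3 with edgeR 4.0.16 (TMM factors, filterByExpr, robust quasi-likelihood F test, condition as the only term, all 9 libraries in 1 fit) and adjusted by the Benjamini-Hochberg method over 15024 genes. The methods name edgeR and a false discovery rate threshold of 5%, but not the test. CPM uses TMM-scaled library sizes. Alternatives used DESeq2 1.42.0, the edgeR likelihood ratio and exact tests, other scaling and filters, a replicate block, loess correction on gene GC content (taken from GENCODE M21) and omission of each library. Simulated data were drawn for vehicle against baseline. The fit called 0 of 200 genes given a 1.5-fold change, 89 of 200 given a 2-fold change and 190 of 200 given a 4-fold change. Among unchanged genes it called 3, 13 and 13 in these runs. Only 200 of 15024 genes were changed in each run, whereas 3564 genes were called in the data. The adjustment was therefore stricter in the simulation, and these rates do not carry over to the data. Changes of 2-fold or less may still go uncalled. FPKM shares were compared with an exact permutation test. Python 3.11.15, pandas 2.3.3, scipy 1.17.1 and matplotlib 3.10.9 served for lists and plots.

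The members, gene lists and tests were chosen with earlier results of these data known. Named genes were all members, up to 2 rising and 2 falling called genes per list and comparison with a mean of at least 1 CPM and groups that did not overlap, set partner genes, and the 2 nearest profiles of each called member; not all are printed. The lists for hepatocyte, macrophage, neutrophil, lymphocyte, endothelial, stellate, cholangiocyte, adipocyte, acinar and proliferating cells served as checks. It is not stated that same-numbered livers at 0 h and 40 h came from 1 mouse, so numbers were not used to pair. The main fit treated all 9 libraries as independent, although baseline and vehicle samples may share mice. Deviations of same-numbered livers from different groups correlated at -0.048 to 0.134, the highest between a vehicle and an NSC liver. Those of other-numbered livers correlated at -0.115 to 0.066. An effect shared by livers of 1 number was not tested beyond the fit with that number as a block. The study describes the libraries of a group as biological replicates, so p-values measure the spread between these livers.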

Additional observations from a re-analysis of the deposited data

How the results depend on the processing

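Of 600 recomputed log2 fold changes of the receptors, 538 kept their direction and their side of the threshold, 26 were no longer called, 17 became called and 19 turned in sign, the cause of which was not tested. With vehicle against baseline, 5 receptors were called, 3 with library size only, 3 with at least 1 count as the filter, 2 at an adjusted p under 0.01 and 0 with an absolute log2 fold change over 1.5 added. Omitting 1 library gave 2 to 5 receptors and 2285 to 4538 genes, against 3564 genes, of which 1726 remained past 0.01 and 1085 past the added fold change. For NSC against baseline (5 receptors, 5207 genes) the stricter calls gave 2975 and 1222 genes, the latter with 0 receptors, and omitting 1 library gave 4 to 6 receptors and 3604 to 5234 genes. For NSC against vehicle (0 receptors, 6 genes), DESeq2 called 1 receptor and 725 genes, the exact test 1 and 256, the likelihood ratio test 412 genes, the filter of at least 1 count 221, library size only 1, GC correction 0, an adjusted p under 0.01 0 genes and the added fold change 3. Omitting 1 library gave 0 to 1 receptors and 0 to 994 genes, the highest without NSC replicate 1, and 111 without vehicle replicate 3.

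The replicate number as a block gave 11 genes in NSC against vehicle, and 1 with GC correction added, and 4 receptors with vehicle, where *Ppara* was lost. It changed no other call of a receptor without GC correction. GC correction moved the share of higher calls from 53.7% to 40.0% with vehicle and from 52.4% to 41.7% with NSC. It also moved the median of all genes to -0.092 and -0.068 in these comparisons. Scaling by library size only shifted the median of all genes to 0.15 with NSC against baseline and 0.14 against vehicle, with 65.4% of calls with NSC higher.

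Signs turned for values that were not called. With NSC against baseline *Nr1h3* went to 0.13 with GC correction and 0.13 with the block added. With NSC against vehicle *Nr1i2* went to 0.031 with library size only and to 0.10 and 0.11 with GC correction without and with the block, *Nr1h3* to 0.16 and 0.16, and *Nr5a2* to -0.22 and -0.21. Omitting 1 library spread *Nr1h3* with vehicle from -0.092 to 0.077 and *Ppard* from -0.23 to 0.55, and in NSC against vehicle *Nr1i2* from -0.26 to 0.058, *Nr1i3* from -0.72 to 0.009, *Ppara* from -0.29 to 0.32 and *Nr5a2* from -0.055 to 0.10. Precision is set by 3 livers a group, and intervals cover the spread between these livers.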
